A study of Mus musculus with 2 samples.

Results

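This is an account of 34 genes of sinusoidal and vascular endothelium in mouse liver. They were taken by name, as deposited accessions whose symbol is on a list of endothelial genes, and all 34 were found among the 26440 genes of the tables. The samples were BALB/c livers taken at day 11: 1 wild-type (WT) library and 1 of genotype SRSF2-/-, which the series describes as a liver-specific knockout. SRSF2 is a serine/arginine-rich protein of the splicing machinery. The study asked how the liver transcriptome differs with this genotype. Which part of the gene is removed, the driver of the deletion, the liver cells it reaches and the number of animals behind each library are unknown from the sources used here. With 1 library per genotype there is no replicate, so nothing below was tested against the spread between animals, and every value describes these 2 libraries.

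The liver's capillaries, the sinusoids, are lined by a specialised endothelium that is perforated by pores and clears waste from the blood through scavenger receptors. Larger vessels, among them the central veins into which sinusoids drain, have a continuous lining. Endothelial cells also send signals to hepatocytes: Wnt proteins and R-spondin from around the central vein set the gene expression of the hepatocytes beside it. The listed genes were read in 6 groups: 16 genes of endothelium in general, 5 sinusoidal genes, 4 genes enriched in sinusoids but shared with other cells or vessels, 4 genes of larger vessels and capillaries, 3 central vein ligands, and 2 other endothelial ligands.

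The libraries held 22407743 (WT) and 22111605 (SRSF2-/-) reads on annotated transcripts. Srsf2 had 1998 and 832 reads, a level in the knockout of 0.421 of the WT level (0.388 to 0.457). Ratios are read ratios, knockout over WT, scaled by the FPKM that 1 read is worth, and the brackets hold 95% exact binomial (Clopper-Pearson) intervals, which cover counting error only. FPKM is the level of a transcript, normalised for its length and for library size. The size of a difference is log2((knockout FPKM + 1) / (WT FPKM + 1)), which understates the change of low genes, and it was computed for 12477 genes with at least 1 FPKM in either library. Its median over these genes was 0.55 and not 0, so each median is also given against that value. The 12 hepatocyte markers, the albumin gene Alb among them, took 28.7% of WT and 13.6% of knockout reads. The knockout library also held reads of other tissues: the 10 exocrine pancreas markers summed to 7.27 and 691 FPKM (3 of them had no WT reads) and the 10 skeletal muscle markers to 0.195 and 81.9 FPKM (6 had no WT reads). Xist, made from the inactive X, had 13004 WT and 6 knockout reads, so genotype and sex cannot be told apart here.

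The endothelial genes as a whole lay slightly higher in the knockout library as deposited, and lower than most genes of the table. They took 0.147% (0.146 to 0.149) of WT reads and 0.191% (0.189 to 0.193) of knockout reads. Of the 34 members, 33 reached 1 FPKM in a library. Just outside was Wnt9b at 0.234 and 0.929 FPKM, and just inside was Sox17 at 0.878 and 1.42 FPKM, which passed through the knockout library alone. The median log2 ratio of the 33 was 0.36, which is -0.19 against the median of all genes. It was above 0 for 28 of them (84.8%), where 84.5% of all tested genes were, and below the median of all genes for 24 (72.7%), where 50% of all tested genes are by construction. By the read ratio, with no pseudocount, 28 of the 33 lay below the median of all genes, and Cd34, Rspo3, Plvap, Pecam1 and Egfl7 above it. Cd34 and Rspo3 were the 2 members at least 2-fold higher, where 19.2% of all tested genes were at least 2-fold higher. At least 2-fold lower were 0 members, where 2.95% of all tested genes were. With the median of all genes set to 0 (centring), 0 members were 2-fold higher and 0 lower, beside 5.67% and 6.66% of all tested genes. The log2 ratios of the 33 ran from -0.30 to 1.25 with an SD across genes of 0.35, beside 0.78 over all tested genes. As a description across the 34 genes, which share both libraries, the log2(FPKM + 1) levels of the 2 libraries had a Pearson r of 0.97.

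The order of the levels was close to the same in both libraries. By FPKM, which allows for transcript length, Clec4g (34.2 FPKM), Fcgr2b (31.4 FPKM) and Gpr182 (31.0 FPKM) led the WT library. In the knockout library Fcgr2b (46.8 FPKM), Eng (42.5 FPKM) and Plvap (40.4 FPKM) led, followed by Gpr182 (40.2 FPKM) and Clec4g (37.3 FPKM). Stab2 moved from the sixth place in WT to 12th of the 34, and Rspo3 from the 27th to 20th. Of the 5 sinusoidal genes, Clec4g and Gpr182 were in the first 5 places in both libraries, while Lyve1 was the 16th in WT and 13th in the knockout. All 5 were detected at 8.89 FPKM or more, as the label of the source, liver, would have it. In RNA of whole liver, fewer cells of a type and less RNA per cell cannot be told apart.

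**Figure D1:**
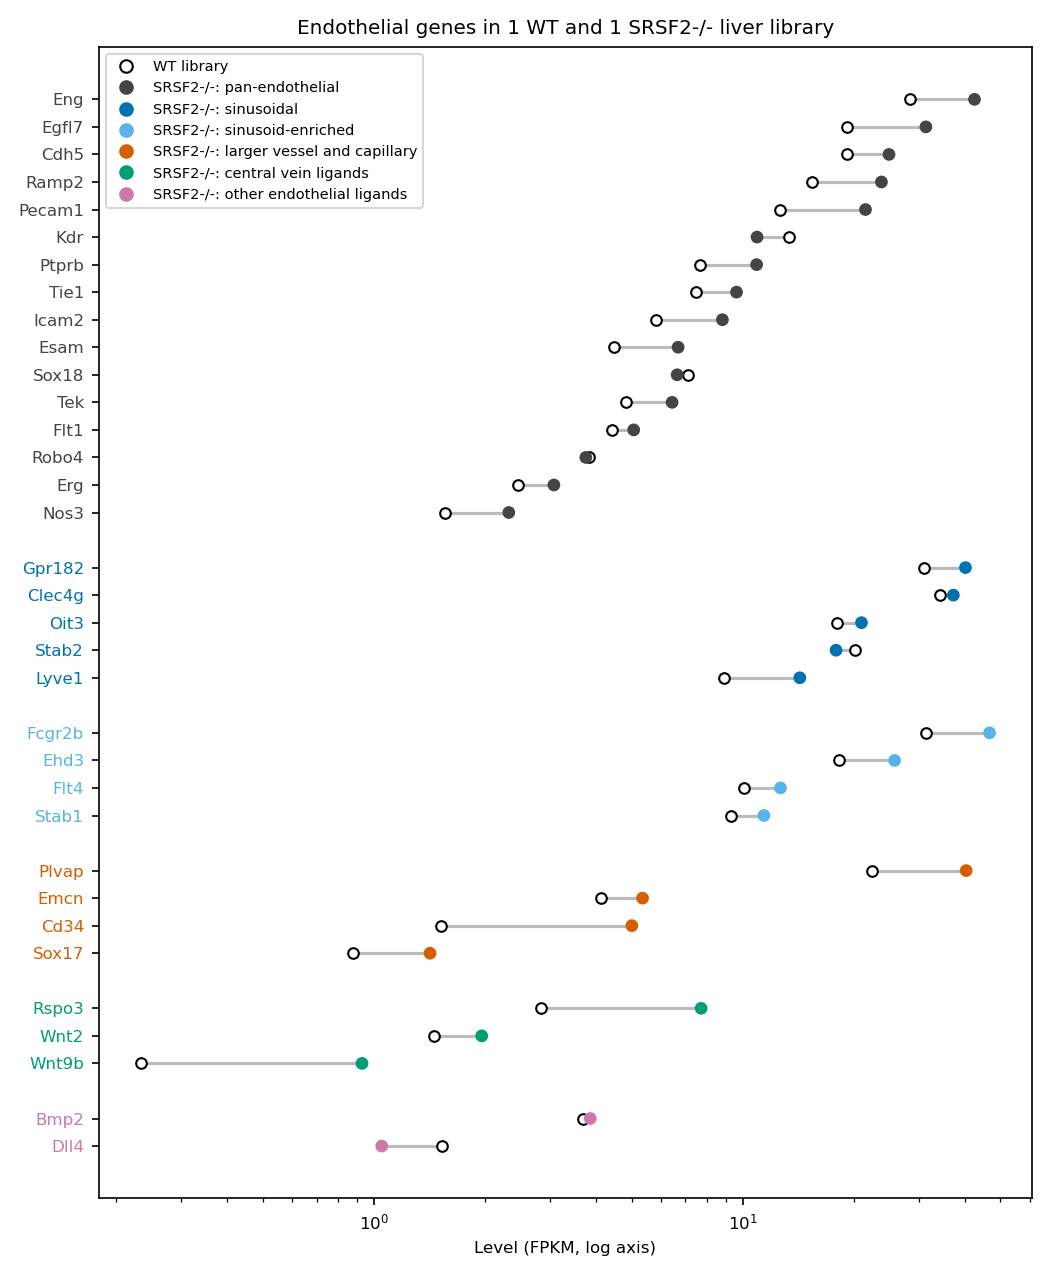
Level of each of the 34 endothelial genes in FPKM (log axis) in the WT library (open circle) and the SRSF2-/- library (filled circle, coloured by group); each circle is 1 library, with no error bar. Most filled circles lie a short way to the right of the open ones, Kdr, Sox18, Robo4, Stab2 and Dll4 lie to the left, and the longest lines belong to Wnt9b (0.234 to 0.929 FPKM), Cd34 and Rspo3.

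For 19 of the 34 members, the RefSeq promoter table of build GRCm38.p6 holds a sequence. The 250 bases before the start are printed here for the 2 members with the highest read ratios among those 19 (Wnt9b, Cd34), the 2 with the lowest (Dll4, Kdr), and Stab2, the sinusoidal gene with the lowest ratio. They are given 5′ to 3′ on the gene's strand, and capitals mark the core that ETS factors such as ERG recognise, searched as AGGAAG or CGGAAG on both strands with no overlap with the other motifs below, so that a match on the other strand reads CTTCCT or CTTCCG.
Wnt9b (chr11:103749822-103750071, minus strand): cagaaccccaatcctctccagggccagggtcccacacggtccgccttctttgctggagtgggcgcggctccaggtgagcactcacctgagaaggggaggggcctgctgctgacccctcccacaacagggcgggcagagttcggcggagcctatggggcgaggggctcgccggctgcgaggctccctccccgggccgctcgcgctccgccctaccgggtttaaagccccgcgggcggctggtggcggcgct
Cd34 (chr1:194938571-194938820, plus strand): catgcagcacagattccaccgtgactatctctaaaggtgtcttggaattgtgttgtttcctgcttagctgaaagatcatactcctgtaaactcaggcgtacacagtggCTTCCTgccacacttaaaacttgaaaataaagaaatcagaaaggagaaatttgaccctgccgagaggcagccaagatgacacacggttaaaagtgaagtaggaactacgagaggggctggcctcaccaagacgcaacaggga
Stab2 (chr10:87007943-87008192, minus strand): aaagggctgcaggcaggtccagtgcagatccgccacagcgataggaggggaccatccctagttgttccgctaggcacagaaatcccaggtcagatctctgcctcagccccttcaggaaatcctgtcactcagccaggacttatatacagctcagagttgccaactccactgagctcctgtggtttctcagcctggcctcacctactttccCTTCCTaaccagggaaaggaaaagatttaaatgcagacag
Kdr (chr5:75978456-75978705, minus strand): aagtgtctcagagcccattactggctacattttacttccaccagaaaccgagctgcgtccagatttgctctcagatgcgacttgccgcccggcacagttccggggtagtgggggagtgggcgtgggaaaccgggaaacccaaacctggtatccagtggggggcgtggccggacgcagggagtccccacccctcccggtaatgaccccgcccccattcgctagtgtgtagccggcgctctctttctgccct
Dll4 (chr2:119325534-119325783, plus strand): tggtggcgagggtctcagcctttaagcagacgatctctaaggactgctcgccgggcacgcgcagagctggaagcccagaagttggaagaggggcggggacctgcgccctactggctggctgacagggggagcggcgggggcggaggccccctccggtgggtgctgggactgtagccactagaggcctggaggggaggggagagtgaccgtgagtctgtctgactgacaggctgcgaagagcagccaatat
The Cd34 window holds 1 match, which begins 142 bases before the start, and the Stab2 window holds 1 that begins 40 bases before it. The Wnt9b, Kdr and Dll4 windows hold 0, which says only that these letters are not in these bases.

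Across the table, the 19 genes have 23 promoters, of which 12 (52.2%) hold an ETS core, beside 39.2% of all 32851 promoters at the same length. Genes with a match stand at both ends of the ratios, Cd34 among the higher and Stab2 among the lower ones. The GATA core, searched as AGATAA on both strands, is in 1 member promoter (4.35%, beside 9.99% of all). The SOX core AACAAT is in 3 (13.0%, beside 9.42% of all), those of Emcn, Erg and Tek. These are matches of letters and not sites.

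Genes that most endothelial cells share were modestly higher in the knockout library, with the vascular endothelial growth factor (VEGF) receptor gene Kdr as the clearest exception. Over these 16 genes the median log2 ratio was 0.37 (-0.18 against all genes), and summed FPKM were 158 and 219. Their ratios spanned 0.821 to 1.70, and 0 of the 16 were 2-fold different in either direction. The interval lay above 1 for 13, below 1 for 1 and across 1 for 2. An interval wholly above 1 was found for 76.8% of all tested genes, and one wholly below 1 for 11.1%, so the share of 13 in 16 (81.3%) is near the background.

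Junction and adhesion genes were higher in the knockout library by unequal amounts. Cdh5, which encodes VE-cadherin of endothelial junctions, had 2055 WT and 2642 knockout reads, or 19.2 and 24.9 FPKM, a ratio of 1.30 (1.23 to 1.38). Pecam1, an adhesion molecule also found on platelets and leukocytes, had 1143 and 1924 reads, or 12.6 and 21.5 FPKM, a ratio of 1.70 (1.58 to 1.83). Pecam1 had the highest ratio of the 16, and its interval does not overlap that of Cdh5. Esam, an adhesion molecule of endothelial tight junctions, stood at 4.47 and 6.68 FPKM, and Icam2, an adhesion molecule that platelets and lymphocytes also carry, at 5.83 and 8.82 FPKM. Both had ratios close to 1.5, with 1.49 (1.28 to 1.75) for Esam and 1.51 (1.26 to 1.83) for Icam2.

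Receptors of the VEGF and angiopoietin systems were divided. Kdr, the main signalling receptor for VEGF-A, had 1930 WT and 1565 knockout reads, or 13.3 and 10.9 FPKM, which is 1.22-fold lower (1.14 to 1.30) in the SRSF2-/- library. Flt1, which binds VEGF-A as a decoy, stood at 4.42 and 5.07 FPKM, a ratio of 1.15 (1.04 to 1.27). Kdr was the lower and Flt1 the slightly higher receptor, and their intervals do not overlap. Tek, the angiopoietin receptor, stood at 4.83 and 6.44 FPKM, a ratio of 1.33 (1.20 to 1.48). Its partner receptor gene Tie1 stood at 7.48 and 9.63 FPKM, a ratio of 1.29 (1.17 to 1.42). Ptprb, the phosphatase VE-PTP that acts on Tek and VE-cadherin, had 2559 and 3600 reads, or 7.67 and 10.9 FPKM, a ratio of 1.42 (1.35 to 1.5). Relative to the Cdh5 reads of the same library, the intervals of Tek and Tie1 held no change. Ptprb lay slightly above Cdh5, at 1.09 times (1.01 to 1.18), and Flt1 slightly below, at 0.882 times (0.785 to 0.990). Kdr lay further below, at 0.631 times (0.577 to 0.690).

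The other genes of this group were also higher in the knockout, except for Robo4 and Sox18. Eng, the co-receptor endoglin for ligands of the TGF-beta family, had 2688 and 3984 reads, or 28.4 and 42.5 FPKM, a ratio of 1.5 (1.43 to 1.58). Egfl7, a secreted protein of vessels, stood at 19.2 and 31.4 FPKM, a ratio of 1.64 (1.5 to 1.79). Ramp2, a receptor-modifying protein needed for adrenomedullin signalling, stood at 15.4 and 23.8 FPKM, a ratio of 1.55 (1.35 to 1.77). With Pecam1, these 3 were the genes of the group above the median of all genes on the log2(FPKM + 1) scale. By the read ratio, whose median over all genes was 1.63, Pecam1 and Egfl7 lay above it and Eng and Ramp2 below.

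The remaining genes of this group were divided. Erg, an ETS factor that maintains endothelial identity, stood at 2.45 and 3.08 FPKM, a ratio of 1.26 (1.04 to 1.52). Sox18, a factor of vessel and lymphatic development, stood at 7.12 and 6.64 FPKM, a ratio of 0.933 (0.790 to 1.10). Robo4, a guidance receptor that stabilises vessels, stood at 3.84 and 3.76 FPKM, a ratio of 0.977 (0.849 to 1.13). For Sox18 and Robo4 a difference was not detectable at this depth in either direction. Nos3, the endothelial nitric oxide synthase, stood at 1.55 and 2.32 FPKM, a ratio of 1.49 (1.22 to 1.83), above the ratio of Cdh5 but with an interval that holds it.

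**Figure D2:**
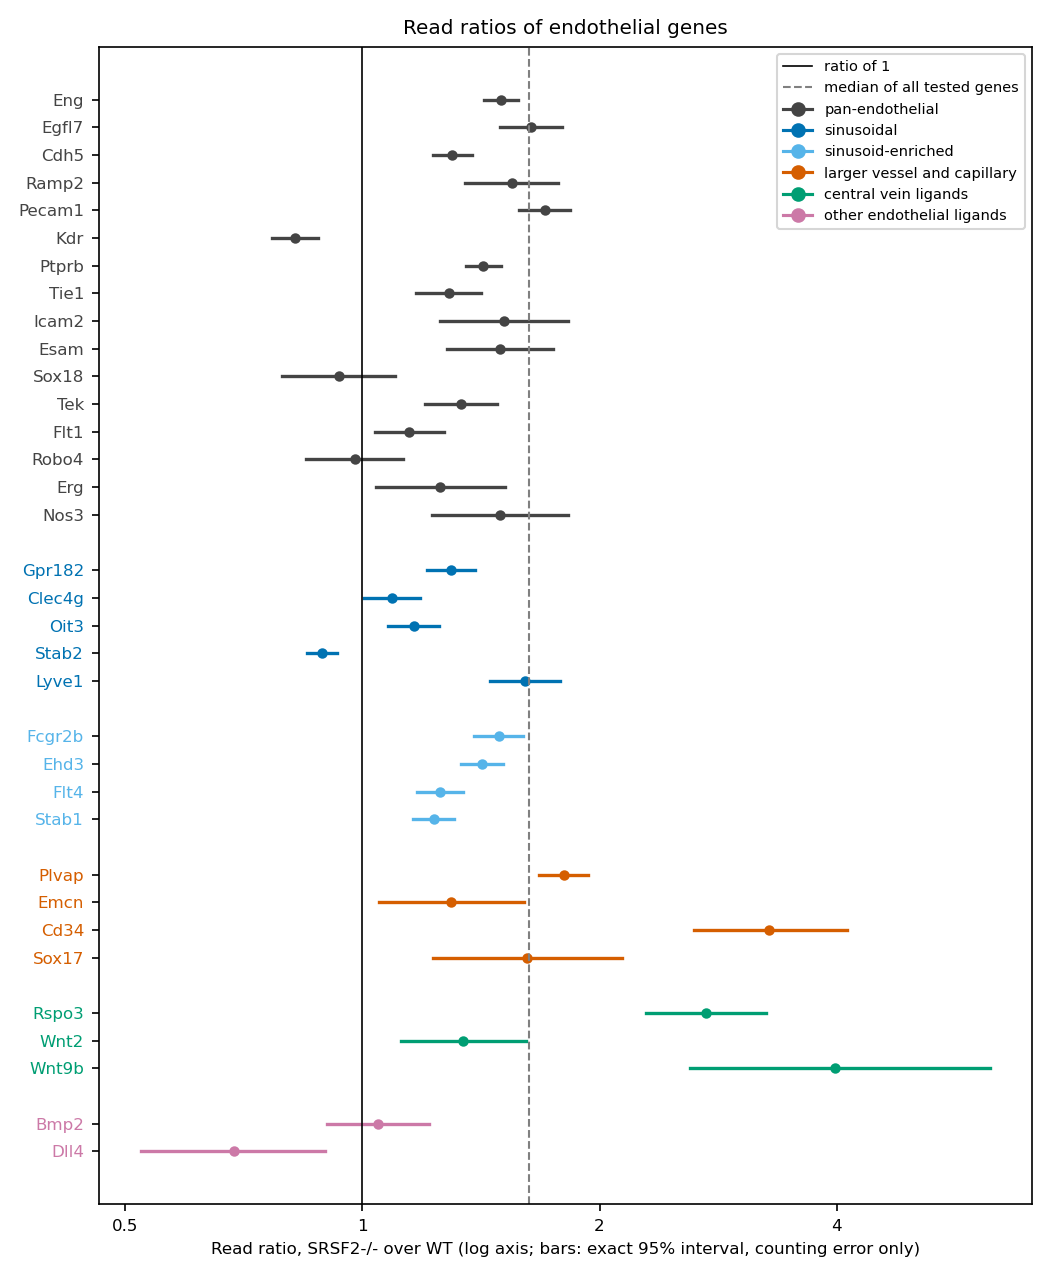
Read ratio of each endothelial gene, SRSF2-/- over WT (log axis), with its exact 95% interval as a bar that covers counting error only; colours give the group, the solid line a ratio of 1 and the dashed line the median ratio of all tested genes, 1.63. Most genes lie between the lines; Wnt9b (3.98), Cd34 (3.28), Rspo3 (2.73) and Plvap (1.80) lie wholly to the right of the dashed line, and Kdr, Stab2 and Dll4 wholly to the left of 1.

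Sinusoidal genes had a lower median ratio than the general endothelial genes, and Stab2 was lower in the knockout; the difference between the groups was not tested. Across the 5 genes the median log2 ratio was 0.21 (-0.35 against all genes), and 0 were 2-fold different. Their summed level was 112 FPKM in WT and 131 FPKM in the knockout library. Set against the general endothelial genes of the same library, this sum was 0.713 of theirs in WT and 0.598 in the knockout. The other sinusoidal groups, given below, did not show a lower share or median. The sum of the 4 sinusoid-enriched genes was 0.437 of the general endothelial sum in WT and 0.442 in the knockout. The 12 tested sinusoidal genes outside the members had a median log2 ratio of 0.54, beside 0.37 for the general endothelial genes.

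Stab2, a scavenger receptor that takes up hyaluronan, had 4357 WT and 3821 knockout reads, or 20.2 and 17.9 FPKM, which is 1.13-fold lower (1.08 to 1.18) in the SRSF2-/- library. Clec4g, the lectin LSECtin of sinusoidal endothelium, had 1121 and 1207 reads, or 34.2 and 37.3 FPKM, a ratio of 1.09 (1.0 to 1.18). Oit3, a secreted protein of the liver, had 1303 and 1496 reads, or 18.1 and 21.0 FPKM, a ratio of 1.16 (1.08 to 1.25). These 3 lay below Cdh5, with Stab2 the lowest. Gpr182, a scavenging receptor for chemokines, had 1395 and 1786 reads, or 31.0 and 40.2 FPKM, a ratio of 1.30 (1.21 to 1.39), the same ratio as that of Cdh5. Lyve1, a hyaluronan receptor that lymphatic vessels and some macrophages also make, had 615 and 977 reads, or 8.89 and 14.3 FPKM, a ratio of 1.61 (1.45 to 1.78). Lyve1 had the highest ratio of the 5 and lay close to the middle of the table, above the median of all genes on the log2(FPKM + 1) scale (0.63 beside 0.55) and below it by the read ratio (1.61 beside 1.63). The level of Stab2 was 2.27 times that of Lyve1 in WT and 1.25 times in the knockout library.

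The 4 genes enriched in sinusoids but shared with other cells were all higher as deposited, and their median log2 ratio was 0.39 (-0.16 against all genes). Stab1, the scavenger receptor stabilin that macrophages also make, stood at 9.28 and 11.4 FPKM, a ratio of 1.23 (1.16 to 1.31). Fcgr2b, an inhibitory receptor for antibodies that B cells and macrophages also carry, stood at 31.4 and 46.8 FPKM, a ratio of 1.49 (1.39 to 1.6). Stab1 and Stab2, which share their family, thus differed in direction as deposited, and both lay below the median of all genes. Flt4, the VEGF-C receptor of lymphatic and sinusoidal endothelium, stood at 10.1 and 12.7 FPKM, a ratio of 1.25 (1.17 to 1.34). Ehd3, a membrane trafficking protein, stood at 18.2 and 25.8 FPKM, a ratio of 1.42 (1.33 to 1.51).

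Among the genes of larger vessels and capillaries, Cd34 and Plvap were higher in the knockout library by more than most endothelial genes. The 4 genes summed to 29.0 FPKM in WT and 52.2 FPKM in the knockout, 0.184 and 0.239 of the general endothelial sum. Their median log2 ratio was 0.59 (0.04 against all genes). Cd34, a sialomucin of continuous capillaries that blood stem cells and some fibroblasts also carry, had 106 WT and 344 knockout reads, or 1.52 and 5.01 FPKM, a ratio of 3.28 (2.63 to 4.12). Its log2 ratio of 1.25 was higher than that of 89.5% of all tested genes. Plvap, which forms the diaphragms of endothelial pores and vesicles, had 1200 and 2135 reads, or 22.4 and 40.4 FPKM, a ratio of 1.80 (1.68 to 1.93). Its log2 ratio of 0.82 exceeded that of 70.6% of tested genes, so it is within the common range of the table. Emcn, the sialomucin endomucin of veins and capillaries, stood at 4.13 and 5.35 FPKM, a ratio of 1.30 (1.05 to 1.6). Sox17, an arterial transcription factor, had 87 and 139 reads, a ratio of 1.62 (1.23 to 2.14).

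Ligands of the central vein stood higher in the knockout library as deposited, but unequally. Rspo3, an R-spondin that strengthens Wnt signalling, had 180 WT and 485 knockout reads, or 2.83 and 7.72 FPKM, a ratio of 2.73 (2.29 to 3.25). Wnt9b, a Wnt ligand of the central vein, had 28 and 110 reads, or 0.234 and 0.929 FPKM, a ratio of 3.98 (2.61 to 6.25). Wnt2, the other Wnt ligand of liver endothelium, had 211 and 280 reads, or 1.46 and 1.96 FPKM, a ratio of 1.34 (1.12 to 1.61). Rspo3 and Wnt9b lay well above Cdh5, while the interval of Wnt2 held the Cdh5 ratio. Cd34 and Rspo3 were the 2 of 33 tested members with a read ratio of at least 2, beside 32.3% of all tested genes, and 0 had one of at most 0.5, beside 3.82%. The median log2 ratio of the 2 tested ligands was 0.73 (0.17 against all genes). Without Rspo3, which stellate cells also make, the remaining tested ligand Wnt2 stood at 0.27. Against the median of all genes, Rspo3 lay higher (0.63) and Wnt2 lower (-0.28). Wnt9b, below the filter, was close to that median (0.09) on this scale, which understates the change of low genes.

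The other ligands were close to equal or lower. Bmp2, a bone morphogenetic protein (BMP) that endothelium sends to hepatocytes to control hepcidin, had 349 and 361 reads, or 3.69 and 3.86 FPKM, a ratio of 1.05 (0.901 to 1.22), so a difference was not detectable at this depth. Dll4, the Notch ligand of arteries and sprouting tips, had 140 and 95 reads, or 1.53 and 1.05 FPKM, which is 1.46-fold lower (1.11 to 1.91) in the SRSF2-/- library. Dll4 had the lowest log2 ratio of the 33 tested members, -0.30, and 8.81% of all tested genes lay lower still.

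Because the tables shift as a whole, each member was also set against the summed reads of the general endothelial genes in the same library (leaving out the member where it was one of them), which needs no library scaling. Relative to that sum, the interval held no change for 13 of the 34 members, lay above it for 11 and below it for 10. The same count was not made over all genes, so there is no background for it and nothing is drawn from it. The median read ratio was 1.38 for the general endothelial genes and 1.63 for all tested genes. Relative abundance within the endothelial set was 2.98 times the WT value for Wnt9b (1.95 to 4.69), 2.46 times for Cd34 (1.97 to 3.09), 2.04 times for Rspo3 (1.72 to 2.44) and 1.35 times for Plvap (1.25 to 1.45). It was 0.515 times for Dll4 (0.392 to 0.673), 0.583 times for Kdr (0.543 to 0.625), 0.665 times for Stab2 (0.634 to 0.698), 0.695 times for Sox18 (0.588 to 0.821) and 0.727 times for Robo4 (0.631 to 0.839). The same 5 genes had a log2 ratio below 0 under each library scaling tried. The sum holds Pecam1, Icam2 and Eng, which other cells also make. Against Cdh5 alone, the values were 3.06 for Wnt9b, 2.52 for Cd34, 2.10 for Rspo3 and 1.38 for Plvap. Lower were Dll4 (0.528), Kdr (0.631), Stab2 (0.682), Sox18 (0.717) and Robo4 (0.751). The interval of Stab1 lay below no change against the sum and held it against Cdh5. The level of Kdr was 0.695 of that of Cdh5 in WT and 0.439 in the knockout, and Plvap stood at 1.11 times Stab2 in WT and 2.25 times in the knockout.

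Direction against the whole library depended on the scaling for 19 of the 33 tested members, Cdh5, Clec4g, Gpr182 and Tek among them: above 0 as deposited and below 0 after centring. Above 0 under each scaling, with centring done on the log2(FPKM + 1) scale, were 9 members (Cd34, Rspo3, Plvap, Pecam1, Egfl7, Lyve1, Ramp2, Eng and Fcgr2b). The last 4 lay below the median of all genes by the read ratio. Of those 9, 6 are made also by blood cells, macrophages or stellate cells in known biology (Cd34, Rspo3, Pecam1, Lyve1, Eng and Fcgr2b), as are 12 of all 34 members. Whether this bears on their higher values was not tested. Without the 12 members that such cells also make, a list drawn up after the values were seen, the median log2 ratio of the 21 tested members was 0.33. The 12 hold both Cd34 and Rspo3, the only members past 2-fold. That 0 of the 21 were 2-fold higher was thus fixed by the list, and nothing is drawn from it.

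Markers of those other cells also differed between the libraries. The 12 macrophage markers matched summed to 416 and 1096 FPKM with a median log2 ratio of 1.12 (0.57 against all genes). Of these, 6 passed 2-fold upwards (2 after centring) and 0 downwards, and none was at 0 reads. Over all tested genes, 19.2% passed 2-fold upwards (5.67% after centring) and 2.95% downwards. The 12 stellate cell and fibroblast markers summed to 211 and 571 FPKM with a median of 1.18 (0.63 against all genes), 8 past 2-fold upwards (2 after centring), 0 downwards and none at 0 reads. The complement gene C1qb of macrophages stood at 74.5 and 229 FPKM, and Dcn, the matrix proteoglycan decorin, at 68.8 and 244 FPKM. Of 10 megakaryocyte and stem cell markers, 5 were tested: Pf4, a platelet chemokine, stood at 5.0 and 19.0 FPKM, and Ppbp, another, at 3.77 and 2.01 FPKM. The B and T lymphocyte markers summed to 13.7 and 13.4 FPKM. The part of these cells, and of vessels in the pancreatic and muscle tissue whose transcripts are given above, in the higher values of Cd34, Rspo3, Pecam1 and Plvap was not tested.

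**Figure D3:**
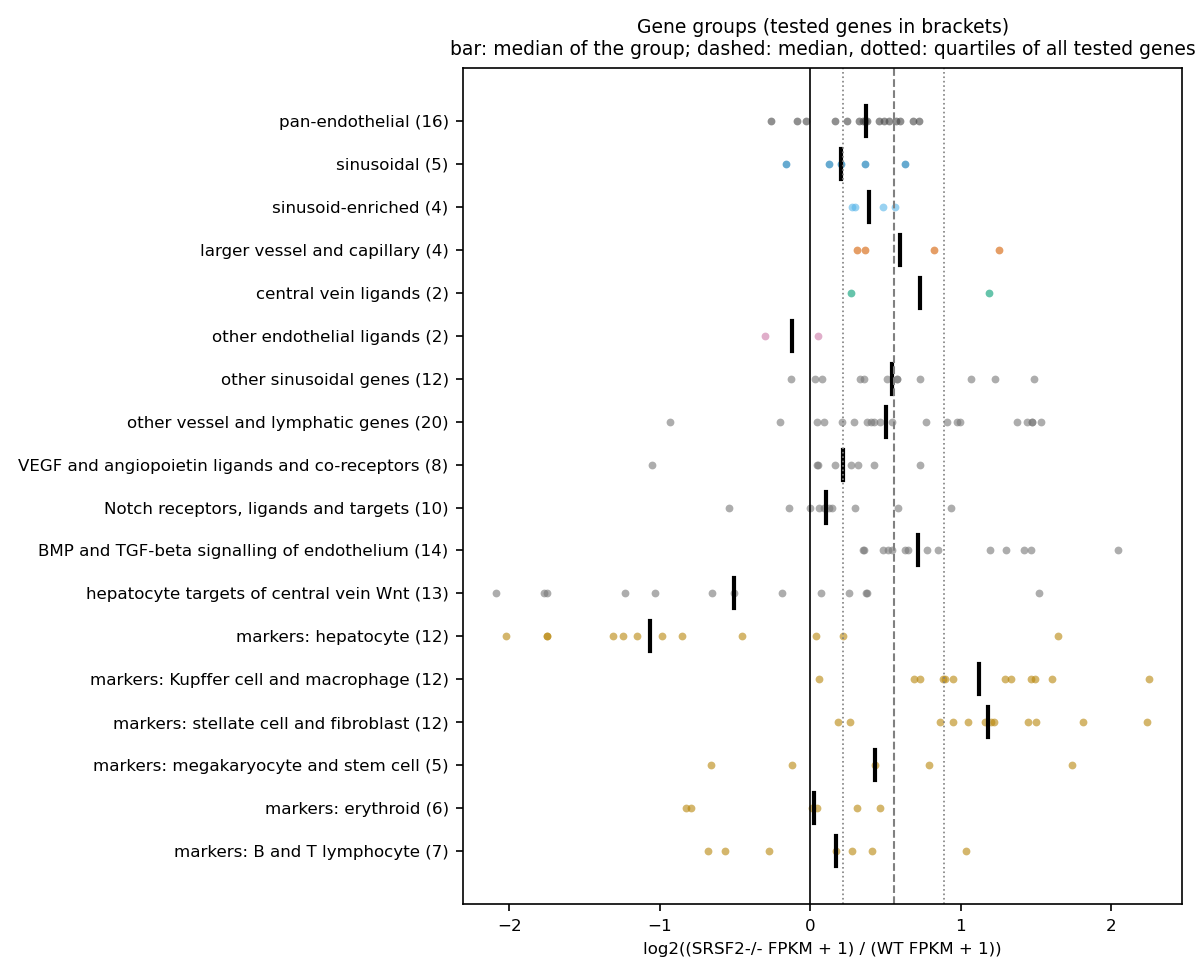
log2((SRSF2-/- FPKM + 1) / (WT FPKM + 1)) of each tested gene (point) by gene group, with the group's median as a bar; the dashed line is the median of all tested genes (0.55), dotted lines are their quartiles (0.22 and 0.89), and numbers in brackets count tested genes. General endothelial and sinusoidal genes lie near or left of the dashed line, hepatocyte markers mostly left of 0, and macrophage and stellate cell markers mostly right of the dashed line.

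Further genes of the same pathways were read from lists that hold none of the members. These lists were chosen, like the members, with earlier results of these data known. Their counts stand beside 19.2% of all tested genes at least 2-fold higher and 2.95% lower, or 5.67% and 6.66% after centring. Of 13 matched genes of sinusoids outside the members, 12 were tested. At least 2-fold higher were 3, or 25% (Ntn4, Clec1b and Cd36), lower were 0, and the median log2 ratio was 0.54 (-0.01 against all genes). After centring, 0 of them were 2-fold higher. The netrin gene Ntn4 stood at 3.0 and 10.2 FPKM, Clec1b, the podoplanin receptor that platelets also carry, at 5.12 and 13.3 FPKM, and the water channel gene Aqp1 at 33.6 and 48.1 FPKM. Of 25 other vessel and lymphatic genes, 20 were tested, 6 of them through the knockout library alone, and the median was 0.50. Over all 25, with no filter, it was 0.42, where the median of all genes was 0.31. At least 2-fold higher were 5, or 25% of those tested (Ly6c1, Icam1, Selp, Vcam1 and Gja4), and 0 were lower. Ly6c1 and Selp were under 1 FPKM in WT and so could enter only by being high in the knockout. Centring left 0 higher and 1 lower, S1pr1, a receptor for sphingosine 1-phosphate, at 20.9 and 10.5 FPKM. Adhesion molecules that capture leukocytes were among the 5: Vcam1 stood at 18.5 and 52.0 FPKM, a ratio of 2.81 (2.66 to 2.97), and Icam1 at 10.5 and 31.0 FPKM, a ratio of 2.95 (2.70 to 3.21). Other liver cells make both.

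VEGF and angiopoietin ligands and co-receptors stood lower than the table. Of 12 genes 8 were tested, and their median log2 ratio was 0.22 (-0.34 against all genes). Higher by 2-fold were 0 and lower was 1, Nrp1, the neuropilin co-receptor that partners Kdr, with 2137 WT and 933 knockout reads, or 12.7 and 5.61 FPKM, which is 2.26-fold lower (2.09 to 2.45). Vegfa, the ligand of Kdr and Flt1 made largely by hepatocytes in liver, stood at 21.0 and 21.7 FPKM, a ratio of 1.03 (0.971 to 1.10). As deposited, the ligand was thus close to equal while the receptor Kdr and its co-receptor were lower. Against the median of all genes each of them was lower, at -0.51 for Vegfa, -0.82 for Kdr and -1.60 for Nrp1. In the Notch list, 10 of 12 genes were tested (3 through the knockout library alone). On the log2(FPKM + 1) scale 0 were at least 2-fold different and the median was 0.10 (-0.45 against all genes). By the read ratio 2 were at least 2-fold higher, Hey1 and the ligand gene Jag1, beside 32.3% of all tested genes. Both were under 1 FPKM in WT. Hey1, a Notch target of arteries, stood at 0.718 and 2.28 FPKM, a ratio of 3.18 (2.23 to 4.62), and Jag1 had a ratio of 2.05 (1.65 to 2.55). Hes1, a target in many cells, stood at 9.61 and 10.3 FPKM. Heyl, another target and the 1 gene 2-fold lower after centring, stood at 1.89 and 0.985 FPKM, a ratio of 0.522 (0.414 to 0.655), so the targets differed in direction among themselves.

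The BMP and TGF-beta list was the one of these lists with a median above that of all genes. All of its 14 matched genes were tested, and the median was 0.71 (0.16 against all genes). At least 2-fold higher were 5 (Bmp6, Tgfbr1, Id1, Tgfbr2 and Id3), or 35.7%, beside 19.2% of all tested genes, and 0 were lower. Centring left Bmp6 alone, which entered through the knockout library. Bmp6, the BMP ligand that liver endothelium is best known for, had 21 WT and 283 knockout reads, or 0.328 and 4.48 FPKM, a ratio of 13.6 (8.75 to 22.4). Bmp2 and Bmp6, both of which act on hepcidin in hepatocytes, thus differed from each other, with Bmp2 near 1. Hamp, the hepcidin gene, stood at 0.668 and 194 FPKM. Id3, a target of BMP signalling, stood at 18.1 and 42.6 FPKM, and Id2 of the same list at 65.4 and 84.2 FPKM. Against the median of all genes, Id1 (0.86) and Id3 (0.64) lay higher, and Id2 (-0.19) and Smad6 (-0.04) lower. The TGF-beta receptor gene Tgfbr1 stood at 2.39 and 8.36 FPKM. Which cells hold these transcripts was not tested, and neither was any link between the values of Bmp6, Id3 and Hamp.

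Hepatocyte genes that depend on the central vein's Wnt signal stood mostly lower in the knockout library. All 13 were tested, with a median of -0.51 (-1.06 against all genes). The log2 ratio was below 0 for 8 and above 0 for 5 (Oat, Znrf3, Axin2, Lgr5 and Rnf43). Znrf3 had a ratio of 1.46 (1.28 to 1.67), Axin2 1.405 (1.21 to 1.63), Lgr5 1.28 (1.09 to 1.49) and Rnf43 1.06 (0.954 to 1.18). The list thus differed in direction among its own genes as deposited, where 84.5% of all tested genes lay above 0. Against the median of all genes, 12 of the 13 lay lower, where 50% of all tested genes do by construction. Only Oat lay higher. At least 2-fold higher was 1, Oat, and 5 were lower (Cyp1a2, Cyp2e1, Lect2, Slc1a2 and Rhbg), which centring changed to 0 and 7. Cyp1a2, a cytochrome P450 of central hepatocytes, had 117 WT and 26.8 knockout FPKM, which is 4.38-fold lower (4.12 to 4.65). Lect2, a secreted protein, had 213 and 62.7 FPKM. The 12 general hepatocyte markers had a median of -1.07, 1 of them past 2-fold upwards and 6 downwards, and their part in the lower values of the Wnt-dependent genes was not tested.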

How the data were processed

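RNA of 1 WT and 1 SRSF2-/- liver library was assigned to groups from the labelled genotype. The submitters' processing notes name Bowtie 0.12.2 and build mm9. How reads were counted, on which annotation release, with or without strand, and how multiply mapped reads were handled was not given in the sources used here. Per the file headers, the authors deposited whole-read counts and FPKM values for 26449 accessions. What 1 read is worth in FPKM was 1.012 times as much in the knockout table.

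Symbols came from RefSeq (GRCm38.p6) and GENCODE tables, used for names, since the build differs: 23419 accessions were named and 3030 were not. Reads and FPKM were summed per gene, although each member had 1 accession. Log2 ratios used a pseudocount of 1 and a filter of 1 FPKM in either library, and relative abundances used exact conditional odds ratios with 95% intervals. No p-value was computed. The members and lists were chosen with earlier results of these data known. The text names all members, Srsf2, and up to 4 genes of each other list (the 2 largest absolute log2 ratios and the 2 highest levels), and Xist and Hamp as values that touch a result. Others were named after their values were seen, to spell out counts of 5 or fewer. The members made also by other cells, the relative abundances, the read ratio against its median over all genes, the unfiltered list medians and the lists of the last part were chosen after the values were seen. Alternatives changed the pseudocount, filter, scaling, accession and size rule. The computation was tested on simulated libraries. Software was matplotlib 3.10.9, scipy 1.17.1, pandas 2.3.3 and numpy 2.4.6 under Python 3.11.15.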

Additional observations from a re-analysis of the deposited data

How the results depend on the processing

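No paired analysis was possible because each genotype has 1 library, and for the same reason no value could be computed without a library. The median log2 ratio of all genes was 0.55, and became 0.68 with a pseudocount of 0.1, 0.30 with a pseudocount of 5, 0.64 on the TPM scale, 0.34 without the 20 most abundant genes and 0.70 from reads alone. The median of all tested members moved from 0.36 to 0.23 with a pseudocount of 5, -0.19 after centring and 0.10 without the 20 most abundant genes. The general endothelial median became -0.18 after centring, and the sinusoidal median became -0.35 after centring and -0.059 without the 20 most abundant genes. The central vein median of 0.73 became 0.40 with a pseudocount of 5, 1.19 with a filter of 5 FPKM, 0.17 after centring and 0.27 without members that other cells also make. The 2 members at least 2-fold higher became 0 with a pseudocount of 5 or after centring, 1 without the 20 most abundant genes, 7 at 1.5-fold and 0 at 4-fold. Without members that other cells also make the count was 0 as well, which was fixed in advance, since both members were left out. Members at least as much lower numbered 0 under each of these settings. Over all genes, the 2396 higher and 368 lower became 3797 and 463 with a pseudocount of 0.1, 786 and 232 with a pseudocount of 5, 708 and 831 after centring, 1413 and 526 without the 20 most abundant genes, 4015 and 474 from reads, 5914 and 687 at 1.5-fold, and 344 and 94 at 4-fold. Of 290 single member values under the alternatives, 225 stayed within the counting interval, 65 moved further, and 23 took the other sign, 19 of them by centring. Depth limits the low genes: Wnt9b rests on 28 WT reads.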

Other observations

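Several vessel genes outside the members had larger differences than any member, in lists drawn up after the values were seen. A gene under 1 FPKM in WT was tested only if it was high in the knockout library, so each list's median is also given over all its genes with no filter, where the median of all genes was 0.31. Counts of 2-fold differences stand beside 19.2% of all tested genes higher and 2.95% lower, or 5.67% and 6.66% after centring. Of 8 tested leukocyte adhesion molecules, 5 (Jam2, Icam1, Selp, Madcam1 and Vcam1) were at least 2-fold higher in the SRSF2-/- library and 0 lower, and after centring 0 were 2-fold higher. Of the 8, 3 passed through the knockout library alone, Selp and Madcam1 among them. The median log2 ratio was 1.45 (0.89 against all genes), and 1.44 with no filter. Jam2, a junctional adhesion molecule of endothelium, stood at 5.43 and 17.6 FPKM, a ratio of 3.24 (2.97 to 3.53). Secreted factors attributed to liver endothelium had a median of 1.08 (0.53 against all genes) over 10 tested genes, 4 of them tested through the knockout library alone (Bmp6 and Pdgfb among them), and 0.85 with no filter. At least 2-fold higher were 5 (Bmp6, Ccn2, Hgf, Pdgfb and Adamts1) and 0 were lower, while centring left Bmp6 and Ccn2 higher and Cxcl12 lower. Here Ccn2, a matricellular protein, stood at 1.88 and 10.8 FPKM, while the chemokine gene Cxcl12 stood at 63.1 and 43.5 FPKM.

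Arterial and venous genes were compared in the same way. Of the 8 tested arterial genes, 5 passed through the knockout library alone. Their median was 0.52 (-0.03 against all genes), and 0.42 with no filter, with 2 at least 2-fold higher: the netrin receptor gene Unc5b, at 1.02 and 10.7 FPKM, a ratio of 10.6 (8.97 to 12.5), and the connexin gene Gja4, at 2.48 and 8.01 FPKM. The arterial ligand Dll4 was lower in the same libraries. The 9 tested venous and central vein genes had a median of 0.55, equal to that of all genes, and 0.60 with no filter, with 3 at least 2-fold higher (Selp, Thbd and the member Rspo3). Selp, which encodes P-selectin of endothelium and platelets, stood at 0.899 and 4.27 FPKM, and Thbd, the anticoagulant receptor thrombomodulin, at 3.06 and 10.0 FPKM, while Ephb4, a receptor of veins, stood at 12.6 and 17.0 FPKM. Basement membrane genes had a median of 0.29 (-0.26) over 11 genes, with 1 at least 2-fold higher, the laminin gene Lama5 at 0.969 and 3.93 FPKM, which passed through the knockout library alone. These lists share genes with each other, with the lists above and with the members, other cells make many of these genes, and the share of endothelium in them was not tested.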
